A study of Mus musculus with 15 samples.

Results

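The Reg (regenerating) family comprised 7 of the 25292 genes in the count table: Reg1, Reg2, Reg3a, Reg3b, Reg3d, Reg3g and Reg4. They were taken by gene symbol. The family was chosen by its measured reads in control against wt, which were far higher in cultured explants than in the fresh organ, so that contrast is given below as a description only. Poly(A) RNA of embryonic mouse pancreas was sequenced from 15 libraries in 5 groups of 3. Fresh pancreata of 14.5 dpc (days post coitum) were labelled wt or S1pr2 null, the null carrying by the study's methods the S1pr2 tm1Rlp allele. S1pr2 is a receptor for the lipid mediator sphingosine-1-phosphate. The other groups were wt 14.5 dpc explants, dorsal buds by the study's methods, kept for 2 days in serum-free air-liquid interface (ALI) culture on a filter. They received standard medium (control), 15 µM JTE013 (JTE), an S1pr2 antagonist, or 15 µM JTE013 with 50 ng/ml connective tissue growth factor (JTE + CTGF). Mice were of the C57/Bl6J strain. By the study's methods a library could hold organs pooled from several embryos, so the spread within a group is between pools. Explants and fresh organs differ in culture, in time since 14.5 dpc and in the part of the organ taken, and these cannot be told apart.

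Reg genes encode small secreted proteins built around a C-type lectin domain. Reg1, first described as pancreatic stone protein, is a product of acinar cells, the enzyme-secreting cells of the pancreas, and Reg3b is the pancreatitis-associated protein that acinar cells release under injury. Reg3b and Reg3g are also antibacterial lectins of the gut epithelium, and in several tissues Reg genes are switched on by cytokines of the IL-6 and IL-22 families acting through Stat3.

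In mm10, 6 of the genes lay together on chromosome 6 within 97.99 kb, from base 78370885 to base 78468872, and no other gene of the count table lay inside this span. Their order was Reg3b, Reg3d, Reg3a, Reg2, Reg1 and Reg3g, with Reg3d and Reg3g on the minus strand. Reg4 lay alone on chromosome 3, from base 98222156 to base 98236748, on the plus strand. Over the aligned coding sequence Reg1 and Reg2 were 78.8% identical and Reg3b and Reg3g 76%, whereas Reg4 was between 49.8% and 53.9% identical to the other members. In spite of this likeness, no stretch of 50 bases in the reference transcripts was common to any pair of Reg genes, so reads of that length could be told apart. Reg1 shared 3.65% and Reg2 11.3% of their 50-base words with genes outside the family.

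The sequence just upstream of the start site is shown for 4 of the 5 members whose reads moved together in culture, leaving out Reg3a. Each run is the 250 bases before the start in the RefSeq-based promoter set of build GRCm38.p6, written 5′ to 3′ on the strand of the gene. The windows were chr6:78425733-78425982 for Reg1, chr6:78370635-78370884 for Reg3b, chr6:78378866-78379115 for Reg3d and chr6:78468875-78469124 for Reg3g. Capitals mark matches on either strand to TTCNNNGAA, the palindrome bound by STAT factors, to CACCTG and TTTCCC, which are the E-box and TC-box parts of sites for the acinar PTF1 complex, and to TATAAA. TTCNNNGAA and TTTCCC can overlap, and they did so in Reg3d.
Reg1: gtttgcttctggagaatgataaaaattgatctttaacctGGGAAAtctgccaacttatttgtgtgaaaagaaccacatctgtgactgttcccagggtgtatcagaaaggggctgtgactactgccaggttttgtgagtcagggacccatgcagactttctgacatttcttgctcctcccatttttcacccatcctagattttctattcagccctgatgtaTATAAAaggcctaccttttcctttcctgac
Reg3b: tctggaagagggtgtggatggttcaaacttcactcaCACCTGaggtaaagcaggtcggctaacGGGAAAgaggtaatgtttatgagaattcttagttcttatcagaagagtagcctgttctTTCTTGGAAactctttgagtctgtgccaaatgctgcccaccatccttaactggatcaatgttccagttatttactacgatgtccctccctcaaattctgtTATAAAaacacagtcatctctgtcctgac
Reg3d: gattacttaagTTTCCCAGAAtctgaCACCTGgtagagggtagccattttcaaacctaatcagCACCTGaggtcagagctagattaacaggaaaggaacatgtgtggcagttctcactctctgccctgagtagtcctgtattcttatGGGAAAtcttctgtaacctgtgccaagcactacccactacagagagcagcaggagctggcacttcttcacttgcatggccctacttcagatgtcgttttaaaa
Reg3g: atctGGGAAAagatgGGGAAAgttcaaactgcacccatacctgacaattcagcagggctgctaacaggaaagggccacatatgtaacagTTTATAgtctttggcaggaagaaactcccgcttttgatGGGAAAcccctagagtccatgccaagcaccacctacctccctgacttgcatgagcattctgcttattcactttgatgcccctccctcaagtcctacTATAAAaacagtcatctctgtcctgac
TTCNNNGAA occurred in 2 of the 7 members, at positions -129 to -121 of Reg3b and -238 to -230 of Reg3d, counted back from the start site. It was present in 7.02% of all 32851 windows of the same length. CACCTG occurred in 5 of 7 members and in 17.2% of windows, and TTTCCC or its complement in 4 of 7 members and in 21.9% of windows. TATAAA began at -30 in Reg1 and Reg2, at -29 in Reg3b and at -27 in Reg3g, and was found in 4 of 7 members and in 12.4% of windows. The window of Reg3a, which is not shown, held CACCTG and none of the other motifs marked. Such matches are letters in a window and do not show that a factor binds there.

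Reads in the libraries labelled wt and S1pr2 null were few for every member except Reg1. All 15 libraries were of similar depth, with between 11402804 and 13828737 reads assigned to genes. S1pr2 itself gave 858, 796 and 812 reads in wt and 1486, 1368 and 1609 reads in the libraries labelled S1pr2 null. By the study's methods a Neo cassette inserted in exon 1 disrupts this allele. Reads were counted over all exons, so they do not check the loss of the receptor, and the group is taken by its label. Library JTE 3 stood apart from the other JTE libraries. The chi-square per gene against them was 17.2 and 23.2, whereas pairs within the other groups gave at most 10.2, so results are also given without it.

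**Figure D1:**
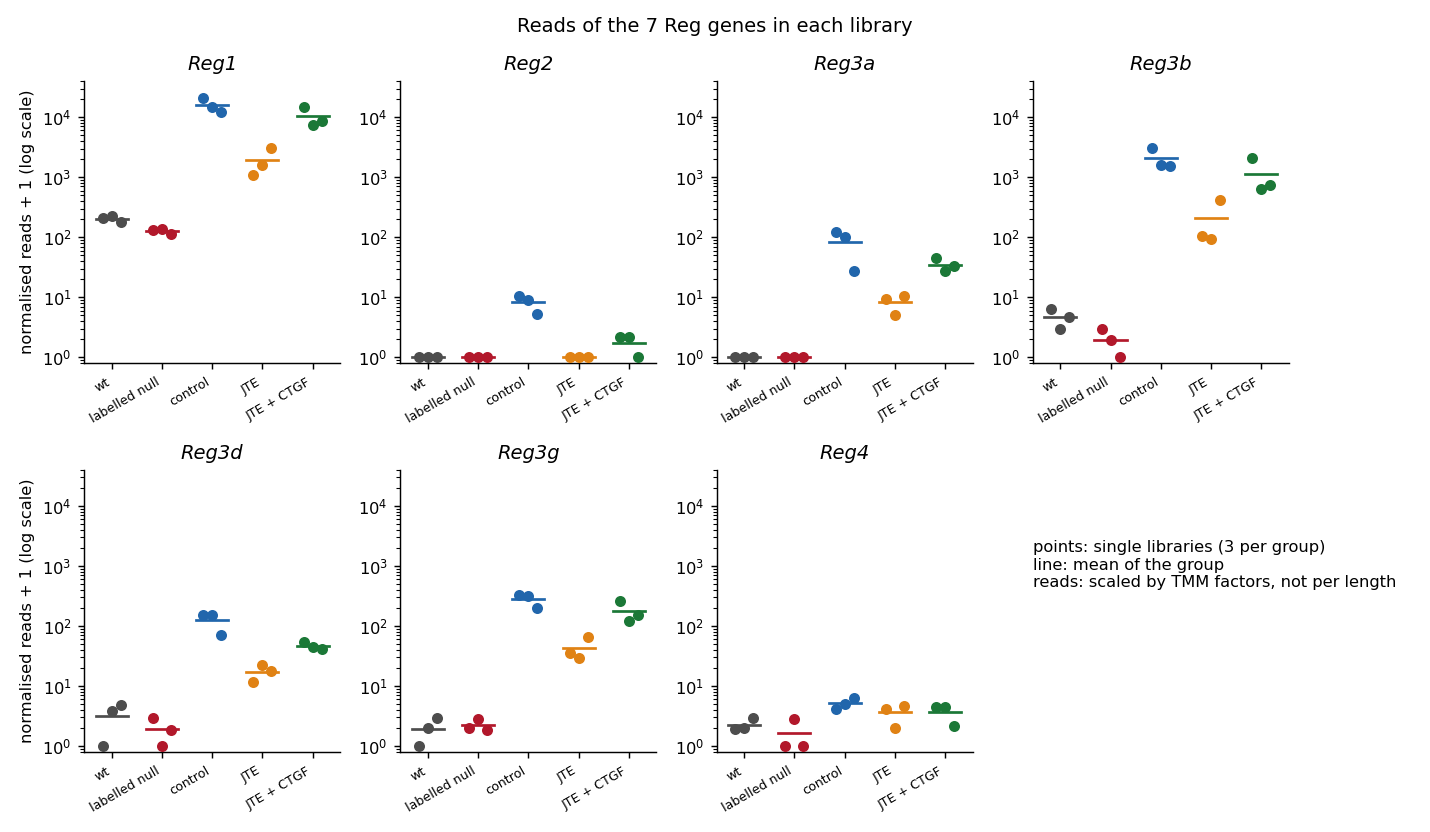
Normalised reads plus 1 (log axis) of each Reg gene in the 15 libraries, with 1 point per library and a line at the mean of each group. All members were highest in control, and Reg1 alone exceeded 100 normalised reads in the fresh organ.

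Reg1 was the most abundant member in every group. In RPKM (reads scaled for library size and gene length) its level was 21.2, 23.6 and 18.5 in wt and 2187, 1505 and 1269 in control. No control library came near a wt library. The group mean of 1654 ± 477 RPKM (SD, n = 3) placed Reg1 15th of 25292 genes in control, against 3330th in wt. Counted over the group, scaled Reg1 reads were 78.2-fold higher in control than in wt, with a 95% interval for counting error alone of 72.4 to 84.6.

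Reg3b came second in the explants. It gave 6, 2 and 4 reads in the wt libraries and 2890, 1592 and 1460 reads in control. A gene at the edge of detection in the fresh organ thus ranked 183rd of 25292 genes by RPKM in control. The ratio of scaled reads was 550.5, with a counting interval of 314.9 to 1066.

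The remaining Reg3 genes were less abundant and showed the same ordering of groups in culture. Reg3g, the other antibacterial lectin, gave 0, 1 and 2 reads in wt and 304, 310 and 190 in control, a ratio of 297.9 with a wide counting interval of 101.6 to 1448. Reg3d gave 0, 3 and 4 reads in wt and 144, 148 and 66 in control, a ratio of 56.9 with an interval of 27.3 to 142.4. Reg3a was not detected in either fresh group and gave 114, 100 and 25 reads in control, which is at least 88.6-fold higher when the wt group is set at a floor of 3 reads. In control the mean levels were 217 RPKM for Reg3b, 12.6 for Reg3d, 10.5 for Reg3g and 7.86 for Reg3a. The counted length of Reg3g was 2114 bases and included a retained intron, while its coding transcript has 771 bases, so its RPKM is understated.

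Reg2 and Reg4 stayed near the limit of detection. Reg2, the close relative of Reg1, gave 9, 8 and 4 reads in control, 1, 1 and 0 in JTE + CTGF and none in the other 9 libraries. Against a floor of 3 reads in wt this is at least 7.78-fold higher in control. Reg4, the member outside the cluster, gave 1, 1 and 2 reads in wt and 3, 4 and 5 in control, a ratio of 3.34 with a counting interval of 1.01 to 14.2. The Reg1 level in control exceeded that of Reg2, 0.836 RPKM, although the genes lie side by side and share most of their coding sequence.

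Control and wt did not overlap for 7 of 7 members, with control higher. The same was true of 30.7% of the 16245 genes tested. Since this contrast chose the family, nothing is read from the count. In these bulk samples fewer cells of a type and less RNA per cell cannot be told apart.

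**Figure D2:**
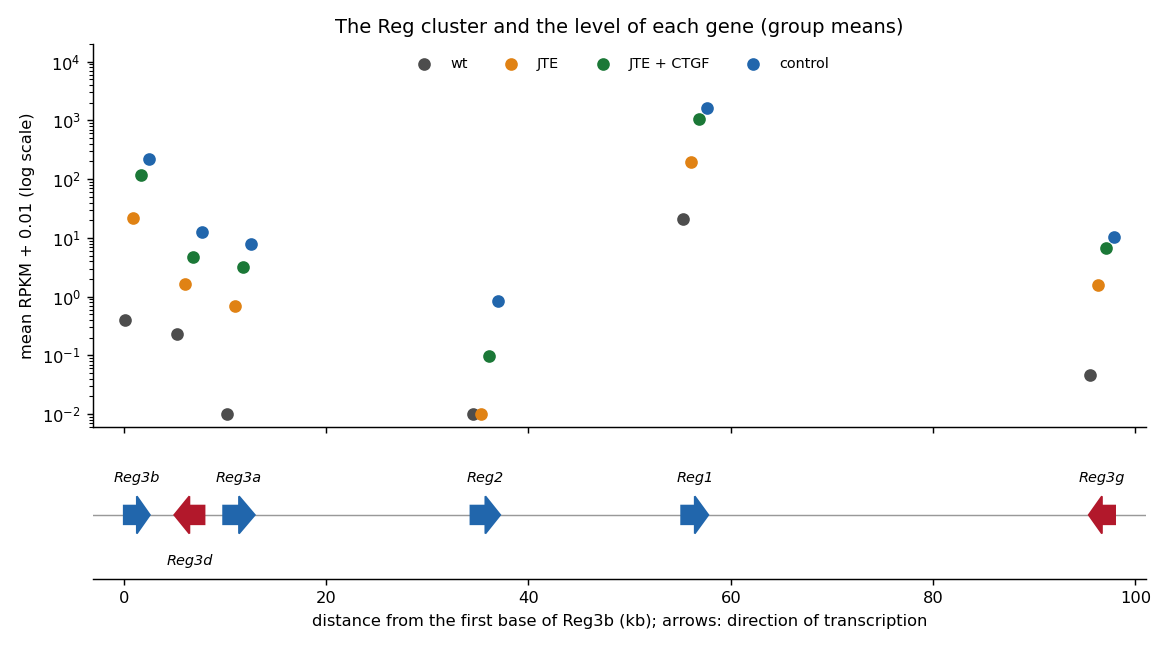
Mean RPKM plus 0.01 (log axis, n = 3 libraries) of the 6 clustered Reg genes, plotted at their distance in kb from the first base of Reg3b, with arrows for the direction of transcription and the groups set slightly apart at each gene. Of the 4 groups drawn, control was highest and wt lowest or level with JTE at each gene, while the levels of neighbouring genes ranged from 0.836 RPKM for Reg2 to 1654 RPKM for Reg1 in control.

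The second question was how the culture level of the family responded to the S1pr2 antagonist. Only 5 members carried enough reads to be tested, Reg1, Reg3a, Reg3b, Reg3d and Reg3g. Reg3a and the other Reg3 genes reached the read filter through the explant libraries alone, so that the number of members passing is not support by itself. Moreover, the control libraries are those whose high values chose the family. In each contrast with control, a lower value elsewhere is thus not independent of that choice, and the counts and ranks of members are a description.

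JTE013 lowered Reg1 from a mean of 15955 ± 4599 to 1898 ± 1029 normalised reads (SD, n = 3). The libraries held 21101, 14518 and 12246 normalised reads in control and 1069, 1577 and 3050 in JTE. The groups did not overlap, and JTE 3 was the highest of the treated libraries. Reg1 fell by 3.07 on the log2 scale, with a standard error of 0.32 and an adjusted p of 5.7e-07. Without JTE 3 the log2 fold change was -3.59. The remaining level was still 197 ± 107 RPKM and did not overlap with wt.

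Reg3b was down-regulated to a similar extent. Normalised reads were 3068, 1601 and 1520 in control and 103, 92.9 and 420 in JTE, where JTE 3 again stood above the other libraries of its group. The log2 fold change was -3.30 ± 0.48 (SE, n = 3, adjusted p = 2.3e-05, edgeR), and -4.40 without JTE 3.

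Reg3g, Reg3d and Reg3a were also down-regulated. Reg3g had 323, 312 and 198 normalised reads in control and 33.9, 28.6 and 63.2 in JTE (log2 fold change -2.71 ± 0.30, adjusted p = 1.2e-06, edgeR). Reg3d had 153, 149 and 68.7 against 10.6, 21.4 and 16.7 (-2.91 ± 0.35, adjusted p = 2.8e-06, edgeR), and here JTE 3 was not the highest treated library. Reg3a had 121, 100.5 and 26.03 against 8.46, 4.08 and 9.30 (-3.47 ± 0.54, adjusted p = 0.00013, edgeR). Control 3 was the lowest control library for each of the 5 genes tested, yet lay above every JTE library.

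All 5 members tested were lower in JTE, where 26.2% of all 16245 genes were called lower. Their median log2 fold change was -3.07, and the median over all genes was 0. Ranked from the most reduced gene, Reg3a was 122nd, Reg3b 150th, Reg1 194th, Reg3d 227th and Reg3g 263rd. Reg2 was too rare for the test, but its 21 reads in control against none in JTE are a reduction of at least 7.25-fold over the group. Reg4, with 12 and 8 reads in the groups, gave a ratio of 0.644 with a counting interval of 0.228 to 1.71 that includes no change.

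**Figure D3:**
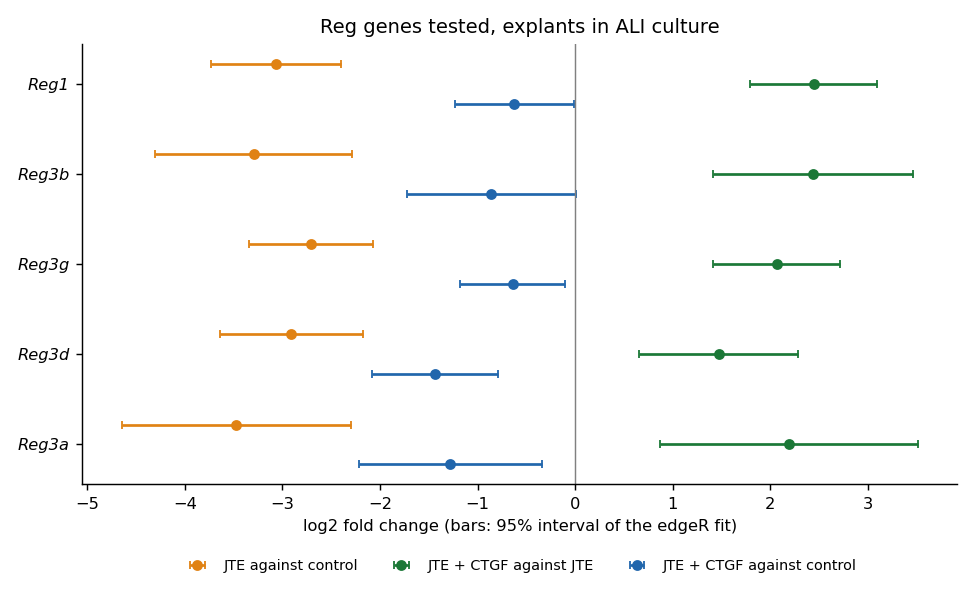
Log2 fold change with the 95% interval of the edgeR fit (n = 3 libraries per group) for the 5 Reg genes tested in 3 comparisons of explants. All 5 lay below 0 in JTE against control and above 0 in JTE + CTGF against JTE, and the values of JTE + CTGF against control lay between -0.62 and -1.44.

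The third comparison asked how far CTGF, given along with the antagonist, altered these levels. It uses the same JTE libraries as the preceding one, and the values of the members therefore depend on each other. Reg1 rose to 15044, 7477 and 8559 normalised reads in JTE + CTGF, each above every JTE library. The log2 fold change against JTE was 2.45 ± 0.31 (SE, n = 3, adjusted p = 2.1e-05, edgeR), and 3.00 without JTE 3. JTE + CTGF 1 was the highest library of its group, and without it the value was 2.07.

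The Reg3 genes tested also rose. Reg3b had 2055, 628 and 730 normalised reads in JTE + CTGF (log2 fold change 2.44 ± 0.49, adjusted p = 0.0012, edgeR). The first of these libraries was about as high as control, and without it the log2 fold change of Reg3b was 1.69. Without JTE 3 it was 3.57. Reg3g had 262, 120 and 152 (2.07 ± 0.31, adjusted p = 9.9e-05, edgeR) and Reg3d 52.6, 43.5 and 40.3 (1.47 ± 0.39, adjusted p = 0.0083, edgeR).

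Reg3a had 43.5, 26.3 and 31.98 normalised reads, all above JTE (2.19 ± 0.61, adjusted p = 0.016, edgeR). This call was lost without JTE 2 (adjusted p = 0.056, edgeR) and without JTE + CTGF 1 (adjusted p = 0.053, edgeR). All 5 members tested were higher, where 13.6% of all genes were called higher. Ranked from the most increased gene, Reg1 was 42nd, Reg3b 43rd, Reg3a 56th, Reg3g 69th and Reg3d 158th of 16245. Their median log2 fold change was 2.19.

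Against control, JTE + CTGF left 3 of the 5 members lower, where 33.0% of all genes were called lower. Reg3d was lower by 1.44 ± 0.31 on the log2 scale (log2 fold change -1.44, adjusted p = 0.00061, edgeR), and its groups did not overlap. Reg3a (-1.28 ± 0.43, adjusted p = 0.021, edgeR) and Reg3g (-0.64 ± 0.26, adjusted p = 0.039, edgeR) also passed, although their highest JTE + CTGF library exceeded the lowest control library. Reg1 (-0.62 ± 0.29, adjusted p = 0.073, edgeR) and Reg3b (-0.86 ± 0.41, adjusted p = 0.079, edgeR) did not pass, with 95% intervals of -1.24 to -0.01 and -1.72 to 0.01. This count was the least stable of the comparisons. It was 1 without control 1, control 2, JTE + CTGF 2 or JTE + CTGF 3, and 5 without JTE 3 or JTE + CTGF 1.

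Over all 5 groups the order of the mean Reg1, Reg3a, Reg3b and Reg3d levels was control, JTE + CTGF, JTE and then the fresh groups. Reg3g followed the same order in the explants. JTE + CTGF did not overlap with JTE, nor JTE with wt, for any of these genes. Control overlapped with JTE + CTGF for Reg1, Reg3a, Reg3b and Reg3g but not for Reg3d. For Reg4 every pair of neighbours in the order overlapped.

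In the fresh organ Reg1 was the one member with enough reads for a comparison. It had 204, 228 and 178 normalised reads in wt and 132, 138 and 110 in the libraries labelled S1pr2 null. The groups did not overlap. The log2 fold change of -0.68 ± 0.42 (SE, n = 3) had an adjusted p of 0.26 in the fit over all 15 libraries, and 0.00046 when only the 6 fresh libraries were fitted (edgeR). The 95% interval in the first fit was -1.57 to 0.21. With all 15 libraries fitted, none of the 5 members was called lower in edgeR or DESeq2. In that edgeR fit 13.3% of all genes were called lower, and 0 members had an unadjusted p below 0.05. Reg3b gave 12 reads in the wt group and 3 in the group labelled S1pr2 null, Reg3d 7 and 3, Reg3g 3 and 4, Reg4 4 and 2, and Reg2 and Reg3a none. At these counts a difference in a Reg3 gene was not detectable.

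The response of Reg1 to JTE013 in culture differed from its difference between the fresh groups. The log2 fold change under JTE minus that of S1pr2 null against wt was -2.39 ± 0.52 (adjusted p = 0.0015, edgeR), and 21.5% of all genes were called lower in this contrast. Reg1 was called at each of the 19 alternatives run, with values from -2.90 to -2.10. The other 4 members tested had too few reads in the fresh organ for their values to be placed, although Reg3g passed with DESeq2. The comparison also sets culture against fresh tissue. It contains the control and wt libraries whose values chose the family, so its p is not independent of that choice.

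Because acinar cells are the known source of Reg1 in the pancreas, its reads were set against those of 20 acinar enzyme genes. Together these enzymes made up 64386 to 90233 CPM (counts scaled to library size) in control and 57428 to 110658 CPM in JTE, with the groups overlapping. The sum mostly follows its most abundant genes, Ctrb1 and Pnliprp1, with means of 522124 and 223494 normalised reads in control. Neither was called in JTE. Cela2a, the most abundant enzyme called lower there, had 9596 in control, so the enzymes that fell weigh little in the ratio. Reg1 reads per 1000 acinar enzyme reads were 18.6, 13 and 15.2 in control, 0.898, 1.14 and 4.23 in JTE, and 10.8, 5.08 and 5.29 in JTE + CTGF. Each of these groups stood clear of the others, as the plot of Reg1 against acinar enzymes shows. The exact permutation test (two-sided) gave p = 0.1 for each pair, the smallest value possible with 3 libraries per group. High Reg1 reads in control helped to choose the family, so the pairs with control are a description and their p is not independent of that choice.

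In the fresh organ this ratio ran the other way from the Reg1 level. It was 1.90, 1.24 and 1.31 in wt and 3.62, 4.12 and 3.06 in the libraries labelled S1pr2 null, which was 2.43-fold higher on average (exact permutation p = 0.1, n = 3, the smallest possible). The enzymes fell there from between 8564 and 14711 CPM in wt to between 2683 and 2914 CPM. Of the 19 enzymes tested, 13 were called lower in that comparison, where 13.3% of all genes were called lower. The wt libraries are among those whose values chose the family, so the p of this ratio is not independent of that choice.

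The ratio of Reg3 to Reg1 reads did not separate the explant groups. Reads of Reg3a, Reg3b, Reg3d and Reg3g per 1000 Reg1 reads were 174, 149 and 148 in control, 146, 93.3 and 167 in JTE, and 160, 109 and 111 in JTE + CTGF. The exact permutation test gave p = 0.4 for JTE against control and p = 0.9 for JTE + CTGF against JTE (n = 3, two-sided). The fresh organ had 26.4, 25.2 and 52.6 in wt, from 6, 6 and 10 Reg3 reads.

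**Figure D4:**
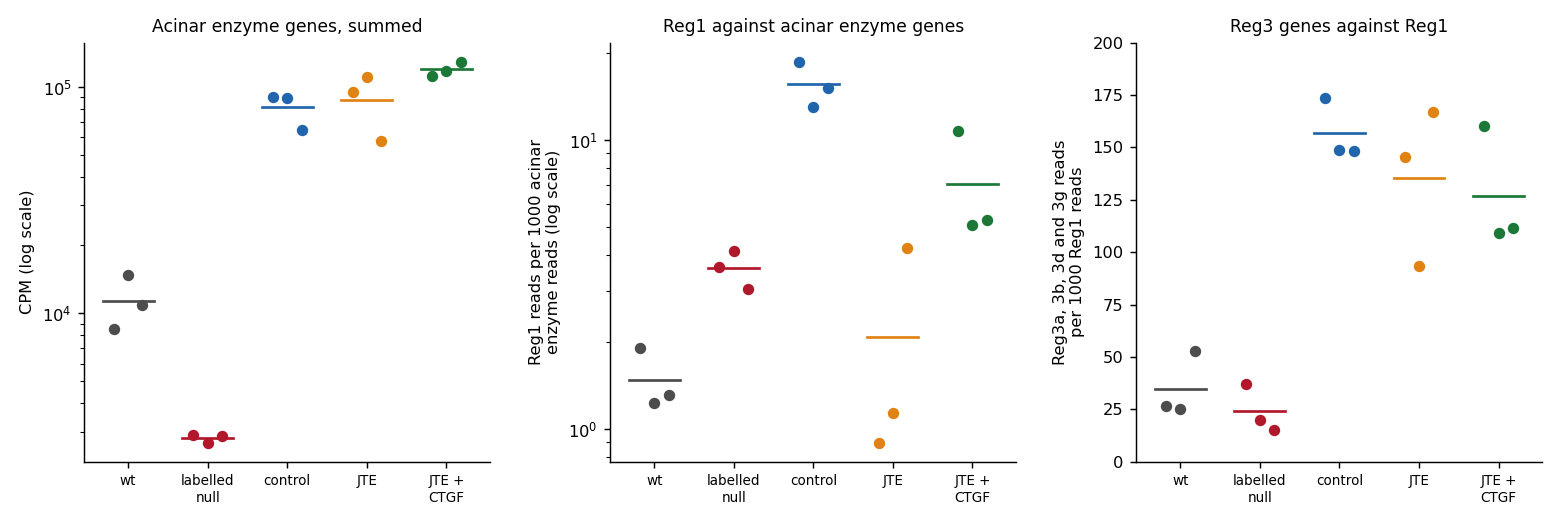
Summed CPM of 20 acinar enzyme genes (log axis), Reg1 reads per 1000 reads of those enzymes (log axis) and Reg3 reads per 1000 Reg1 reads (linear axis), with 1 point per library and a line at the group mean. Reg1 per acinar read was 15.6 on average in control, 2.09 in JTE and 7.05 in JTE + CTGF, while the Reg3 to Reg1 ratio of the explant groups overlapped.

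Within the acinar list the enzymes did not share one response to JTE013. Of 19 tested, 7 were lower and 2 higher, where 26.2% of all genes were called lower and 25.9% higher. Procarboxypeptidase Cpb1 fell by 3.28 on the log2 scale and the ribonuclease Rnase1 fell by 2.47, values near those of the Reg genes. Ctrc had the lowest value (log2 fold change -4.36), whereas Gp2 was higher (1.19 ± 0.25). With CTGF 3 of the 19 were called higher and none lower, where 13.6% of all genes were called higher. Rnase1 rose with CTGF (log2 fold change 1.54 ± 0.21, adjusted p = 3.6e-05, edgeR), whereas Ctrc was not called (0.34, adjusted p = 0.90, edgeR). Of 6 acinar transcription factors 1 was lower and 1 higher, namely Xbp1, of the secretory stress response, and Ptf1a, the DNA-binding core of PTF1 (0.83, adjusted p = 0.00079, edgeR).

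The signalling path known to control Reg genes was examined next. Among the IL-6 and IL-22 family ligands, 3 of 5 tested were lower and 1 higher in JTE against control. Over all genes 26.2% were called lower and 25.9% higher in this comparison. Lif, a gp130 cytokine, had mean normalised reads of 11.5 in wt, 90.2 in control and 49.9 in JTE (log2 fold change -0.85 ± 0.20, adjusted p = 0.0016, edgeR). Clcf1 was also lower (-0.66 ± 0.14), whereas Il11 was higher (1.10 ± 0.33). Il6 and Il22 gave at most 5 reads in any library. The median log2 fold change of the ligands was -0.66 in JTE and -0.03 with CTGF.

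Of 10 receptor genes tested, 3 were lower and 4 higher with JTE013, where 26.2% of all genes were called lower and 25.9% higher. Osmr, the oncostatin M receptor, had mean normalised reads of 160 in control and 64.8 in JTE (-1.29 ± 0.24, adjusted p = 0.00027, edgeR). Il6st, which encodes the shared subunit gp130, was higher in JTE (0.39 ± 0.11) and lower with CTGF added (-0.64 ± 0.11, adjusted p = 0.00032, edgeR). Extl3, proposed as a receptor for Reg proteins, had 2682 normalised reads in control and 2926 in JTE (adjusted p = 0.052, edgeR).

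Of the 9 JAK and STAT genes, 3 were lower and 3 higher in JTE, beside 26.2% of all genes called lower and 25.9% higher. Stat3 had 845 normalised reads in wt, 2863 in control and 2373 in JTE, a small but called decrease (-0.27 ± 0.05, adjusted p = 0.00049, edgeR). It was not called with CTGF (0.09 ± 0.05, adjusted p = 0.26, edgeR).

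A list of 13 genes of the Stat3 path was tested in full. It held known targets and also Pias3 and Ptpn2, which are inhibitors of STAT signalling. In JTE 7 were lower and 4 higher (median log2 fold change -0.32), and with CTGF 9 of 13 were higher (median 0.33). Pias3 was among the higher in both comparisons, and Ptpn2 among the higher with CTGF. Over all genes 26.2% were called lower and 25.9% higher in JTE, 13.6% were called higher with CTGF, and the medians were 0 and -0.002. Junb, an AP-1 factor, had a log2 fold change of -1.202 in JTE and of 0.73 with CTGF (adjusted p = 0.00016, edgeR), and Fgl1, a secreted hepatokine, one of -2.64 and then 1.69 (adjusted p = 0.011, edgeR). Fgl1 had few reads, at most 26 in any library. Unlike the Reg genes it was no higher in control than in wt, with means of 17.3 and 23.3 normalised reads. Its mean in the libraries labelled S1pr2 null was 0.31. Cebpb did not follow the fall and rise of Junb and was higher in both comparisons (1.37 ± 0.10 and 0.51 ± 0.09). Socs3, the feedback inhibitor of this path, did not pass in JTE (-0.08 ± 0.19, adjusted p = 0.75, edgeR) and was higher with CTGF (0.83 ± 0.19, adjusted p = 0.0028, edgeR).

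Acute phase and stress genes, which are often induced together with Reg3b in pancreatitis, were counted likewise. Of 15 tested, 10 were lower and 1 higher in JTE, and 7 were higher with CTGF. The shares over all genes were 26.2% lower and 25.9% higher in JTE, and 13.6% higher with CTGF. Haptoglobin (Hp) had log2 fold changes of -3.19 in JTE and 3.98 with CTGF, although at few reads, with a mean of 1.64 normalised reads in JTE. Nupr1, a stress factor of injured acinar cells, was higher in JTE (1.79 ± 0.13, adjusted p = 7.3e-09, edgeR) and so moved against the Reg genes. The median log2 fold change of this list was -1.15 in JTE against control and 0.59 with CTGF.

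**Figure D5:**
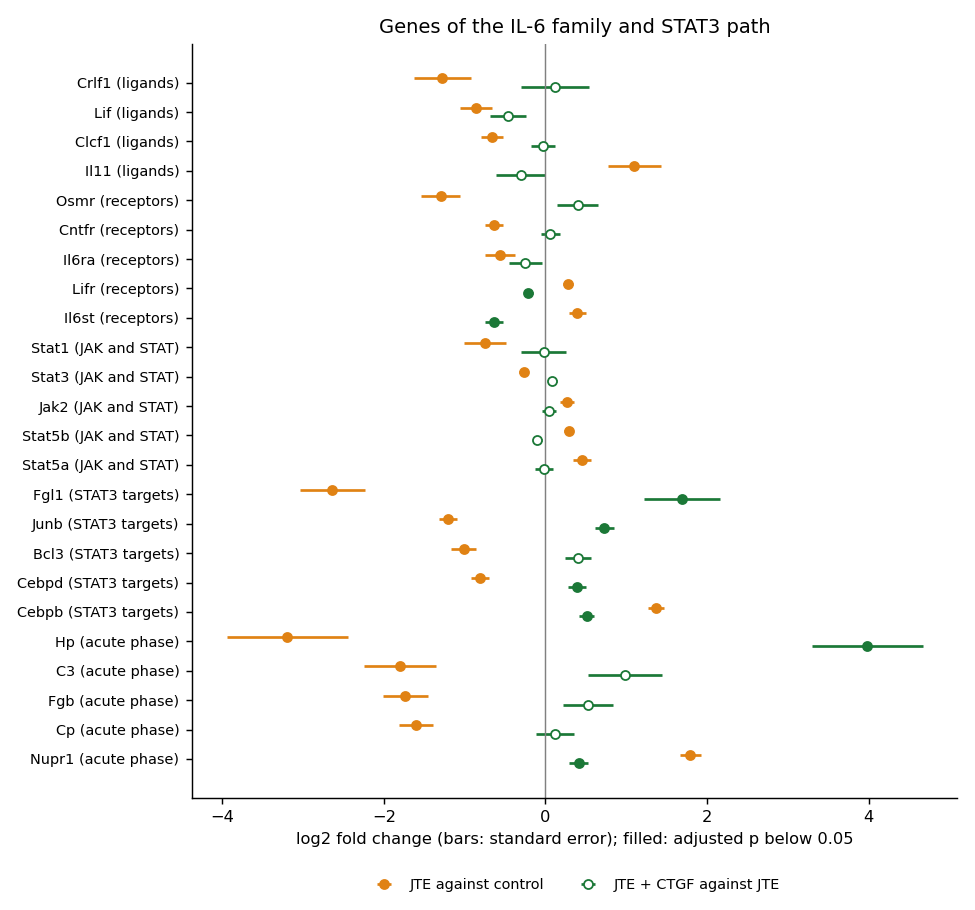
Log2 fold change with its standard error for up to 5 genes of each list of the IL-6 family and Stat3 path, taken by the size of the change among those called in JTE against control. Filled points passed an adjusted p of 0.05. The Stat3 targets Fgl1, Junb and Cebpd lay below 0 in JTE and above 0 with CTGF, and Cebpb and Nupr1 lay above 0 in both. Fgl1 had at most 26 reads in any library.

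The Reg3 genes are also products of gut epithelium and their levels were set beside markers of other cells. Of 13 gut epithelium markers 4 were tested, of which 3 were lower and 1 higher in JTE. Among all genes 26.2% were called lower and 25.9% higher. Vil1 (-2.54 ± 0.15) and Tff2 (-1.15) were among the lower, and the pancreas also expresses both. Lgals4, a gut galectin, had 40.6 normalised reads in control and 81.5 in JTE (1.00 ± 0.35, adjusted p = 0.024, edgeR), opposite to the Reg genes. Other defining gut genes were at or near 0. Cdx1, Cdx2, Fabp2, Muc5ac and Apoa4 gave at most 7 reads in any library. The stomach gene Gkn1 had a mean of 26.4 normalised reads in control, 0.705 in JTE and 0 in JTE + CTGF, and unlike the Reg genes it was not higher with CTGF.

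Leukocyte markers were lower with the antagonist and did not regain the control level with CTGF. Their summed level was 481 to 496 CPM in control, 181 to 231 CPM in JTE and 166 to 249 CPM in JTE + CTGF. Of 12 tested, 10 were lower in JTE, where 26.2% of all genes were called lower. With CTGF their median log2 fold change was 0.02, and Csf1r, the macrophage receptor, had a value of -0.16 (adjusted p = 0.63, edgeR). Endocrine markers summed to 5632 to 6525 CPM in control, 1611 to 1986 CPM in JTE and 1694 to 2395 CPM in JTE + CTGF. Duct markers behaved alike, with 1855 to 2151, 817 to 956 and 948 to 1203 CPM in these groups. Mesenchyme markers summed to 8331 to 8804 CPM in control and 8703 to 10593 CPM in JTE. The part of these cells in the Reg levels was not tested.

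Genes of similar profile were then sought. Over 15 libraries, the protein-coding genes outside the family with the profile most like the mean of the 5 members tested were Dmbt1 (Pearson r = 0.991), Rela (0.989), Junb (0.984), Mmp19 (0.983) and Ifi202b (0.98). These coefficients are a description, since the points fall into groups that differ strongly. Dmbt1, a secreted scavenger protein of mucosa and pancreas, had mean normalised reads of 2.80 in wt, 568 in control, 55.2 in JTE and 228 in JTE + CTGF. Its log2 fold changes were -3.35 ± 0.35 in JTE and 2.03 ± 0.37 with CTGF, each close to those of Reg1. Rela, a subunit of NF-kB, covered a far smaller range, from 760 in wt to 1495 in control.

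For single members, the 2 genes of highest r were Dmbt1 and Tmem176a for Reg1, H2-Q4 and C1s1 for Reg3b, Ifi202b and Rela for Reg3g, Dmbt1 and Rela for Reg3d, and Tcp11l2 and Rela for Reg3a. Of 8 gut lectin and antimicrobial genes tested, 5 were lower and 1 higher in JTE, and with CTGF 1, Dmbt1, was higher and 1, Itln1, lower. The shares over all genes were 26.2% lower and 25.9% higher in JTE, and 13.6% higher and 16.8% lower with CTGF. Agr2 fell by 3.77 in JTE and had a log2 fold change of 0.51 with CTGF (adjusted p = 0.70, edgeR), and the lectin Itln1 had log2 fold changes of -1.89 and -3.53, both called.

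Genes near the Reg loci had other patterns. Ctnna2, the nearest protein-coding gene to the cluster at a gap of 391.2 kb from Reg3b, had a log2 fold change of -0.01 in JTE (adjusted p = 0.98, edgeR) and was lower with CTGF (-0.63 ± 0.16, adjusted p = 0.0071, edgeR). Phgdh, of serine synthesis and 76.4 kb from Reg4, was higher in JTE (0.64 ± 0.07).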

How the data were processed

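The authors aligned single-end reads of strand-specific poly(A) libraries to mm10 with GSNAP. They deposited raw read counts per Ensembl gene, made from uniquely aligned reads with featureCounts 1.4.6. The setting for strand was not given in the sources used here. Groups and replicate numbers came from the sample titles, and symbols from GENCODE M21.

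All 15 libraries entered 1 quasi-likelihood fit in edgeR 4.0.16 (R 4.3.3), with 1 mean per group and TMM scaling, on genes passing filterByExpr. Benjamini-Hochberg adjustment covered 16245 genes, and an adjusted p below 0.05 was a call. The standard error is the absolute log2 fold change over the root of F. Normalised reads are counts divided by relative effective library size. Depth was 11402804 to 13828737 reads per library. Intervals (95%) of ratios of summed reads and floors (3 reads over a group) cover counting error only. The 95% intervals of log2 fold changes come from the standard error of the edgeR fit and include the spread between libraries. Scripts were tested on simulated data. Permutation tests and plots used Python 3.11.15, scipy 1.17.1 and matplotlib 3.10.9. Alternatives were DESeq2 1.42.0 and its size factors, no filter, a replicate block, the study's criterion, only the libraries compared, and each library left out.

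The members and lists were chosen with earlier results of these data known. Each list gave at most 5 named genes, the most changed among those called in JTE against control, with defining markers near 0, the flanking genes and the genes of most similar profile. Il6, Il22, Socs3, Pias3, Ptpn2, Extl3, Ctrb1, Pnliprp1 and Cela2a were named after their values were seen.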

Additional observations from a re-analysis of the deposited data

Results flagged for a closer look

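The Reg1 response to JTE013 in explants and the Reg1 difference between the fresh groups were unequal by a test of the difference itself. The contrast was -2.39 on the log2 scale (SE 0.52, adjusted p = 0.0015, edgeR, 3 libraries per group), from -3.07 in JTE against control and -0.68 in S1pr2 null against wt. Reg1 was lower in 3 of 3 libraries of the first group named in each comparison than in any library of the second. The antagonist was applied to explants, whereas the label S1pr2 null belongs to fresh organs. Treatment, genotype and culture cannot be told apart in this contrast. High control and low wt values chose the family, and both push the contrast below 0. Its p is thus not independent of that choice, and the value is a description.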

How the results depend on the processing

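No Reg result that passed its test changed direction under the alternatives run. The uncalled log2 fold change of Reg3g in S1pr2 null against wt, which was 0.34, ran from -0.21 to 1.19 when 1 library was left out. In JTE + CTGF against control, where 3 members were called, the count was 6 with no filter on low counts and 1 to 5 when 1 library was left out. All genes called there, in either direction, were 10235 of 25292 with no filter and 9047 to 10383 without 1 library. In JTE + CTGF against JTE the criterion of the study, which asks for over 100 normalised reads, called 3 members and 322 of 16245 genes. In S1pr2 null against wt 1 member, Reg1, and 5388 of 15527 genes were called with only the libraries of the comparison. In the contrast of the JTE and S1pr2 null responses DESeq2 called 2 members and 6266 of 18425 genes. In JTE against control 6 members and 8539 of 25292 genes were called with no filter. By the criterion of the study these were 4 members and 1389 of 16245 genes. Reg2 and Reg4, too rare for the main fit, were also tested with no filter. The control mean of Reg3a, 82.5 normalised reads, was under the 100 of the criterion. Other causes were not tested. Replicate numbers did not pair the libraries, since only 2 of 30 same-numbered pairs correlated above 0.1. With the replicate block 5 members were called in JTE against control and 5 in JTE + CTGF against JTE, and 4 in JTE + CTGF against control, where Reg3b then passed (log2 fold change -0.95). All genes called with that block were 8338, 4776 and 9816 of 16245 in these comparisons. Of the alternatives for single genes, 1847 kept their direction and side of the threshold, 65 lost a call, 12 gained one and 2 moved by more than the replicate spread. Depth limits the fresh organ, where only Reg1 had more than 12 reads over a wt group.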
